A study of Mus musculus with 9 samples.

Results

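The genes examined here are 30 genes of cholesterol synthesis, uptake and efflux, found by symbol among the 54134 entries of the count table, and all 30 had an entry. They comprised 18 enzymes of the synthesis route, 5 regulators of the SREBP system, 4 genes of LXR signalling and efflux, and 3 genes that act on uptake, storage or transport of the sterol. RNA was sequenced from wild-type cells labelled HT22, a mouse hippocampal neuronal line kept in medium with fetal bovine serum, in 3 groups of 3 libraries. Control cells had no treatment, the Hb cells were given oxyhemoglobin, and the Hb+NTR1 cells were given oxyhemoglobin and NTR1. The series title writes NGR1 for the added agent where the sample labels write NTR1, and the cell type label reads HT-4. Doses and times were not given in the sources used here, and no group had the agent alone, so a difference between Hb+NTR1 and Hb is that of the agent in the presence of oxyhemoglobin. The labels call the libraries of a group replicates without naming separate cultures, and p-values therefore rest on a spread between libraries that could be technical. In bulk RNA, a lower share of cells that express a gene and less of its RNA per cell cannot be told apart.

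Cells make cholesterol from acetyl-CoA. The mevalonate arm builds isoprenoid units, which also feed protein prenylation, and the sterol arm joins them to squalene, closes the ring to lanosterol and trims that to cholesterol. When sterol in the endoplasmic reticulum is low, SCAP carries the SREBP transcription factors to the Golgi, where they are cut and released to switch on the synthesis and uptake genes, and the INSIG proteins hold SCAP back when sterol is plentiful. When oxysterols accumulate, the LXR receptors switch on the efflux pumps ABCA1 and ABCG1 and MYLIP, a ubiquitin ligase that removes lipoprotein receptors. In the brain the sterol is mostly made locally, since lipoproteins of the blood do not cross its barrier.

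Library totals ran from 13415648 to 16893746 counts, and levels below are TMM-normalised CPM (counts scaled to library size), printed in the order of replicates 1, 2 and 3 or as mean ± SD with n = 3. Of the 30 genes, 28 passed the filter on low counts and were tested among 13810 genes, and Abcg1 and Nr1h3 did not pass. Log2 fold changes are given ± SE, and adjusted p is from the quasi-likelihood test of edgeR, adjusted by Benjamini-Hochberg over all 13810 genes, with a threshold of 0.05. "Rose" and "fell" mean that this threshold was passed. Hb replicate 2 stood apart from the other Hb libraries, with a chi-square statistic (per degree of freedom, over genes) of 13.2 and 11.03 against them, where the other pairs of replicates had 2.53 to 5.19.

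The promoters of 25 of the 30 genes were in the RefSeq table of GRCm38.p6, as 34 windows from 250 bases before to 50 bases after a start site. Fdft1, Fdps, Sqle, Abcg1 and Stard4 were not matched. The windows of 3 synthesis genes that fell in Hb+NTR1 against Hb (Hmgcs1, Mvk and Nsdhl) and of 1 that rose (Msmo1) are shown, since they let the letters be compared between genes that moved in opposite directions. They lie at chr13:119690101-119690400 on the plus strand, chr5:114444019-114444318 on the plus strand, chrX:72918271-72918570 on the plus strand and chr8:64733529-64733828 on the minus strand, and read 5′ to 3′ along the gene. Capitals mark CCAAT, the box read by the factor NF-Y, on either strand (ATTGG when reversed), and TCACNCCAC, a core of the sterol regulatory element read by the SREBPs.
Hmgcs1: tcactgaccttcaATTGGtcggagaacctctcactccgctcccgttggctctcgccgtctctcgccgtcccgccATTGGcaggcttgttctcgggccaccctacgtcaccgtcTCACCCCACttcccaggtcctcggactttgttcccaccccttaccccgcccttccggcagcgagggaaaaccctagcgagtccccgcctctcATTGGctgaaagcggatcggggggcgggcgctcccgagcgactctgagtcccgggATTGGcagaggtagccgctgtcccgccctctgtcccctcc
Mvk: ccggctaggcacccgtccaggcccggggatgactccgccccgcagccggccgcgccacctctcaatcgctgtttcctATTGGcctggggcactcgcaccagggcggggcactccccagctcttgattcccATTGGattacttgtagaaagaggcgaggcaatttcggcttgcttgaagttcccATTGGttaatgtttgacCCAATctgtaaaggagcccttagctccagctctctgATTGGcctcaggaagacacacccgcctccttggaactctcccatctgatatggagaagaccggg
Nsdhl: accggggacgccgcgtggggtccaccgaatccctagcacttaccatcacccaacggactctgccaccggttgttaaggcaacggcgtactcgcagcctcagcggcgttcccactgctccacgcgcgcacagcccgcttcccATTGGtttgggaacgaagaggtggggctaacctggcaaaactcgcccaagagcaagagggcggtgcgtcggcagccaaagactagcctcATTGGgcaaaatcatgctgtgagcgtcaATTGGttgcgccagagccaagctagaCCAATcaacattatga
Msmo1: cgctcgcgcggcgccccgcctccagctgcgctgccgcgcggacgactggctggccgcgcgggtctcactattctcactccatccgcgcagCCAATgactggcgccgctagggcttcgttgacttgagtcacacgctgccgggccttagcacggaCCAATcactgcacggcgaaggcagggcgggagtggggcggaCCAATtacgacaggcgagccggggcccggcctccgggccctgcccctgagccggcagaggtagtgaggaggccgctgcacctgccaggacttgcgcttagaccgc

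The Hmgcs1 window held 4 CCAAT boxes and the only TCACNCCAC match among the matched genes. Mvk held 5 CCAAT boxes, Nsdhl 4 and Msmo1 3, so the box was present both in genes that fell and in one that rose. The 3 fallers shown held more boxes than the other matched synthesis genes that fell. Of those others, Mvd and Idi1 held 2 each, Cyp51 and Lss 1 each, Pmvk at most 1 in a window, and Acat2 0. Among the other synthesis genes that rose, Sc5d held 1 and Dhcr7 at most 2 in a window. CCAAT on either strand was found in at least 1 window of 20 of the 25 matched genes (80.0%), which were 14 of 15 synthesis genes, 4 of 5 regulators, 0 of 3 LXR and efflux genes, and both Mylip and Soat1. It was in 37.4% of all 32851 windows of the table, and in 44.0% of 9549 tested genes with a match. TCACNCCAC was in 1.24% of all windows. CACGTG, the E-box, was in 6 of the 25 genes against 7.15% of all windows and 11.7% of tested genes, and GGGCGG, the GC box, in 22 of 25 (88.0%) against 35.7% of all windows and 68.8% of tested genes. All 4 motifs were searched on both strands, and in the windows shown no CCAAT match overlaps the TCACNCCAC match. A match describes letters and is no evidence of a bound site.

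In control cells the synthesis route was expressed throughout. Between genes, levels were compared as CPM per kilobase of exon (union of GENCODE M21 exons). Cyp51, the lanosterol demethylase, stood highest at 109 ± 1.63, followed by Sqle, the squalene epoxidase that is a rate-limiting enzyme of the sterol arm, at 71.9 ± 2.78. Srebf2, the SREBP that drives cholesterol genes, Acat2, the acetoacetyl-CoA thiolase that opens the route, and Insig1 came next at 69.7 ± 2.14, 69.6 ± 3.41 and 66.3 ± 1.32. From Sqle down to Insig1, neighbours in the order did not differ beyond their SDs. At the low end of the tested genes were Fdps at 3.12 ± 0.239, Tm7sf2 at 2.95 ± 0.228 and Abca1 at 0.889 ± 0.0938 CPM per kilobase. With the length of the principal transcript in place of the exon union, Sqle ranked 1 and Cyp51 ranked 2, and Msmo1 moved from rank 10 to rank 4. The level of Fdps is uncertain, because 81.3% of its principal transcript is overlapped on the same strand by Gm43738, which had 1 count in all libraries together, and how reads in such overlaps were counted is not given.

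**Figure D1:**
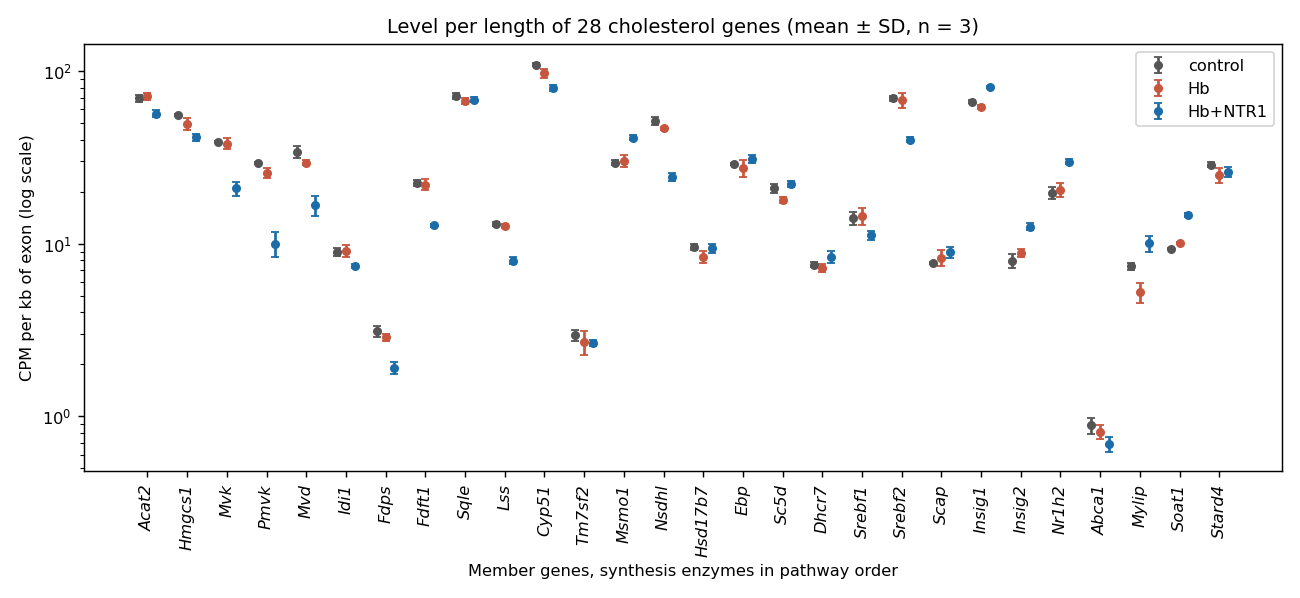
Levels of the tested members per kilobase of exon in the 3 groups, on a log axis, as CPM per kilobase (mean ± SD, n = 3). Cyp51 stood highest in control at 109, and Abca1 lowest of the tested members at 0.889.

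Hb was compared with control to see what oxyhemoglobin did to these genes. The synthesis genes were nearly level, with a median log2 fold change of -0.11 over 18 genes, where the median of all tested genes was 0. By edgeR 0 of 18 rose and 0 of 18 fell, and at an unadjusted p under 0.05 there were 6 lower and 0 higher. The share of all tested genes past that unadjusted threshold was not computed. DESeq2 called 1 of the 18 synthesis genes lower, Sc5d, and none higher. The estimate lay below 0 for 15 of 18 genes. In 8 of 18 the 3 Hb libraries all lay below the 3 control libraries, an arrangement found in 10.0% of all tested genes. The 5 regulators had a median of 0.04, and edgeR and DESeq2 each called 0 of them, with 0 at an unadjusted p under 0.05. Of all genes 3.65% were called in either direction and 1.77% as lower, and of the 28 tested members 1 was called, Mylip.

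Mylip, the ubiquitin ligase that marks lipoprotein receptors for breakdown (chr13:45389742-45412022, GRCm38), had 23.8, 25.1 and 22.8 CPM in control, 18.01, 14.3 and 18.3 in Hb and 29.95, 36.2 and 31.1 in Hb+NTR1. The groups did not overlap, and Hb lay lowest and Hb+NTR1 highest. It fell in Hb against control (log2 fold change -0.51 ± 0.112, 1.42-fold lower, adjusted p = 0.00840) and rose in Hb+NTR1 against Hb (log2 fold change 0.94 ± 0.110, 1.92-fold higher, adjusted p = 7.77e-08) and against control (log2 fold change 0.44 ± 0.105, 1.35-fold higher, adjusted p = 0.000901). It was the 1 member called in opposite directions by the comparisons with Hb, which share the Hb libraries. The fall in Hb was not past the threshold without control replicate 2 (adjusted p = 0.0523).

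Sc5d, the desaturase that acts late in the sterol arm, came nearest to the threshold among the synthesis genes in Hb (log2 fold change -0.23 ± 0.0677, 1.17-fold lower, adjusted p = 0.0571). Cyp51 (-0.17 ± 0.0614, adjusted p = 0.140) and Hmgcs1 (-0.17 ± 0.0650, adjusted p = 0.175) were also lower in all 3 Hb libraries than in control. Leaving out Hb replicate 2 took the count of called genes from 504 to 1125 and that of members called lower from 1 to 4, which were Mylip, Cyp51, Hmgcs1 and Sc5d. Without Hb replicate 3, Stard4, a sterol carrier, was called lower (log2 fold change -0.28, adjusted p = 0.0250).

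**Figure D2:**
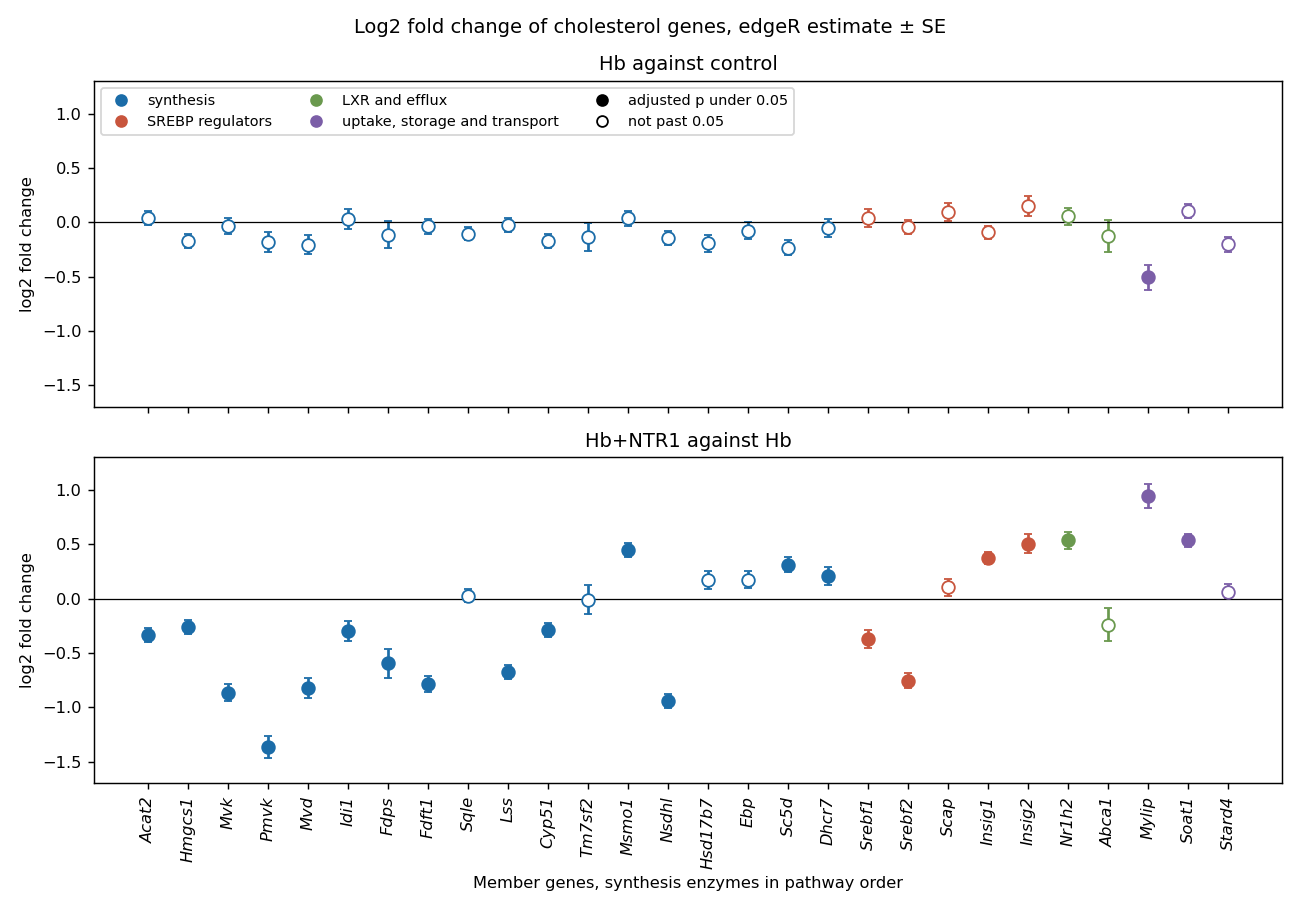
Log2 fold change ± SE of each tested member in Hb against control and in Hb+NTR1 against Hb. The order runs along the route from Acat2 to Dhcr7, then regulators, LXR and efflux, and uptake, storage and transport. Filled points passed an adjusted p of 0.05. All 7 mevalonate genes lie below 0 in Hb+NTR1 against Hb, while Msmo1, Insig1, Insig2, Nr1h2, Mylip and Soat1 lie above 0.

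Hb+NTR1 was compared with Hb to see what the added agent did in the presence of oxyhemoglobin. Of the 28 tested members 8 rose, 13 fell and 7 did not pass, or 75.0% called, where 62.3% of all genes were called, 30.7% higher and 31.6% lower. Most tested genes were thus called in this comparison, and the share among the members is to be read against that. The 18 synthesis genes had 3 higher, 11 lower and 4 not past the threshold, with a median log2 fold change of -0.29, against -0.01 for all tested genes. By the same measure the 5 regulators had a median of 0.10 with 2 higher and 2 lower, the 2 tested LXR and efflux genes 0.15 with 1 higher and 0 lower, and the 3 uptake, storage and transport genes 0.54 with 2 higher and 0 lower. At an unadjusted p under 0.05, and by DESeq2, there were also 0 lower in these last 2 groups. The difference between groups of genes was not tested.

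In the mevalonate arm 7 of 7 genes fell, with a median log2 fold change of -0.60 and a range from -1.37 to -0.26. The largest fall was in Pmvk, the phosphomevalonate kinase (chr3:89454541-89469013), which had 50.3, 50.5 and 49.5 CPM in control, 46.7, 44.8 and 41.1 in Hb and 15.6, 20.4 and 15.5 in Hb+NTR1. The 3 Hb+NTR1 libraries lay far below the other 6 (log2 fold change -1.37 ± 0.101, 2.58-fold lower, adjusted p = 3.37e-11). Mvk, the mevalonate kinase directly before it, whose promoter holds 5 CCAAT boxes, had 104, 105 and 104 CPM in control, 97.8, 110.1 and 97.6 in Hb and 50.2, 56.9 and 60.6 in Hb+NTR1. Its control libraries were nearly equal, and all Hb+NTR1 libraries were lower than all others (log2 fold change -0.87 ± 0.0757, 1.82-fold lower, adjusted p = 6.96e-10). For Mvd, the decarboxylase that follows Pmvk, the libraries had 60.7, 60.2 and 68.9 CPM in control, 56.5, 52.8 and 55.2 in Hb and 26.9, 34.9 and 31.5 in Hb+NTR1, with each Hb+NTR1 library below each Hb library (log2 fold change -0.82 ± 0.0914, 1.76-fold lower, adjusted p = 4.16e-08). These 3 consecutive enzymes had the largest changes of the arm.

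The other 4 genes of the mevalonate arm fell less. Fdps, which makes farnesyl diphosphate, went from 12.1 ± 0.582 CPM in Hb to 8.02 ± 0.660 in Hb+NTR1 (log2 fold change -0.60 ± 0.131, 1.51-fold lower, adjusted p = 0.000401), with the overlap named above. Acat2 went from 182 ± 9.36 to 144 ± 6.51 CPM (log2 fold change -0.33 ± 0.0645, 1.26-fold lower, adjusted p = 9.94e-05). Idi1, the isopentenyl diphosphate isomerase, fell 1.23-fold (adjusted p = 0.00638). Hmgcs1, the HMG-CoA synthase and the gene with the sterol regulatory element match shown above, fell 1.20-fold, from 228 ± 17.7 to 190.4 ± 9.27 CPM (adjusted p = 0.00146). In each of the 7 genes the Hb+NTR1 libraries did not overlap those of Hb, in a comparison where 62.3% of all genes were called. The share of all tested genes without overlap was not computed for this comparison, so the 7 are not set apart by it.

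**Figure D3:**
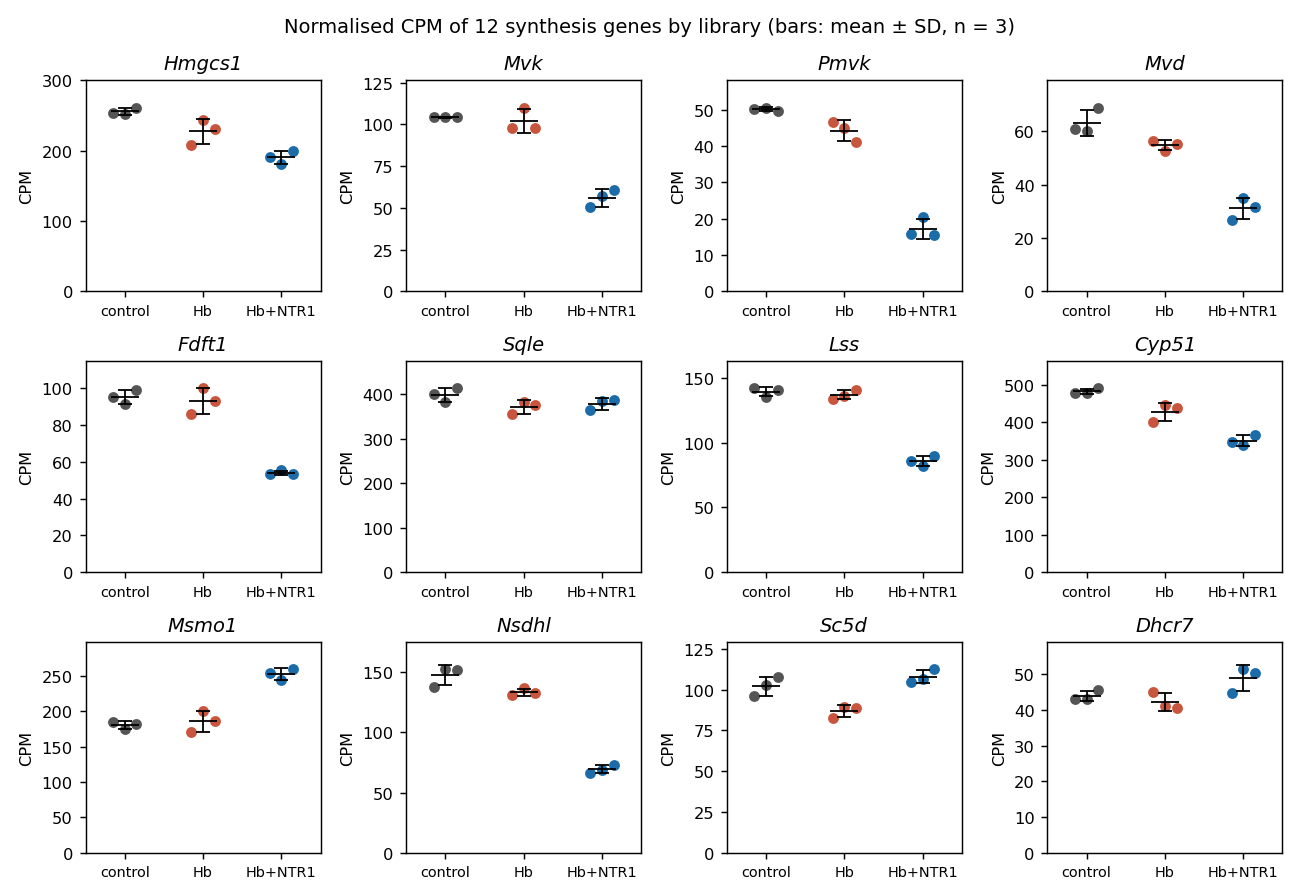
Normalised CPM of 12 synthesis genes in each library (dots), with mean ± SD (bars, n = 3), by group. In Pmvk and Nsdhl the Hb+NTR1 libraries lie far below both other groups, in Sqle the Hb and Hb+NTR1 libraries overlap, and in Msmo1 the Hb+NTR1 libraries lie above.

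Of the 11 genes of the squalene and sterol arm, 4 fell, 3 rose and 4 did not pass, with a median of 0.03. The falls were led by Nsdhl, the sterol dehydrogenase that removes a carboxyl group at the ring (chrX:72918557-72958514), with 138, 152 and 152 CPM in control, 131, 137 and 133 in Hb and 66.5, 68.5 and 73.2 in Hb+NTR1. Its Hb+NTR1 libraries did not overlap those of the other groups (log2 fold change -0.94 ± 0.0670, 1.92-fold lower, adjusted p = 1.82e-11). Fdft1, the squalene synthase that commits isoprenoids to sterols, had 95.6, 91.8 and 99.3 CPM in control, 86.03, 100.1 and 93.3 in Hb and 53.3, 55.4 and 53.3 in Hb+NTR1. Those of Hb+NTR1 were the lowest (log2 fold change -0.79 ± 0.0722, 1.72-fold lower, adjusted p = 1.61e-09). Its value is uncertain, since 20.9% of its principal transcript is overlapped antisense by Ctsb, the strand setting of the counting is not given, and Ctsb itself had 204 ± 6.29 CPM in control, 249.6 ± 6.49 in Hb, and with NTR1 added 585 ± 23.03.

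Lss, the lanosterol synthase, fell 1.60-fold, from 137 ± 3.63 to 86.00 ± 3.96 CPM (adjusted p = 2.37e-09). Cyp51, the next enzyme, fell 1.22-fold, from 428 ± 24.3 to 350.5 ± 14.01 CPM (adjusted p = 0.000287). Its level in control was the highest per kilobase of the exon union, though not per length of the principal transcript. Annotated antisense overlaps covered 8.16% of the principal transcript of Lss and 4.22% of that of Cyp51.

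Msmo1, the methylsterol monooxygenase that works directly before Nsdhl in the removal of the ring's methyl groups, moved the other way, with 186, 175 and 183 CPM in control, 170.5, 201 and 186 in Hb and 254, 244 and 259.6 in Hb+NTR1. Control and Hb overlapped, and all 3 Hb+NTR1 libraries lay above them (log2 fold change 0.44 ± 0.0651, 1.36-fold higher, adjusted p = 2.55e-06). Sc5d rose from 86.8 ± 3.61 CPM in Hb to 108 ± 4.10 in Hb+NTR1 (log2 fold change 0.31 ± 0.0677, 1.24-fold higher, adjusted p = 0.000321), where control had 102 ± 5.95, so that the Hb+NTR1 and control libraries overlapped. Dhcr7, the reductase of the last step to cholesterol, rose from 42.2 ± 2.40 to 48.8 ± 3.63 CPM (log2 fold change 0.21 ± 0.0819, 1.16-fold higher, adjusted p = 0.0301), but its libraries overlapped. Its call ended on leaving out Hb replicate 2 or 3 (adjusted p = 0.0579 and 0.0884) or Hb+NTR1 replicate 2 or 3 (0.118 and 0.100), with no filter on low counts (0.0823) and with only the 6 libraries compared (0.0555).

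Sqle was the most abundant synthesis gene not past the threshold, with 401, 382 and 413 CPM in control, 354, 382 and 377 in Hb and 363, 384 and 386 in Hb+NTR1. The groups Hb and Hb+NTR1 overlapped, and the estimate was near 0 (log2 fold change 0.03 ± 0.0607, 1.02-fold higher, adjusted p = 0.729). Tm7sf2, a sterol reductase, had a log2 fold change of -0.01 ± 0.133. Hsd17b7, the ketosteroid reductase that follows Nsdhl, had 0.17 ± 0.0821 (adjusted p = 0.0778), and Ebp, the sterol isomerase, 0.17 ± 0.0789 (adjusted p = 0.0606). Ebp was called higher without Hb replicate 2 (adjusted p = 0.00197), and Hsd17b7 without Hb replicate 1 or Hb+NTR1 replicate 1 (0.0251 and 0.0467). For the 6 genes from Msmo1 to Dhcr7 the median was 0.19, with 3 higher and 1 lower. These 6 leave out Cyp51, which fell, and Tm7sf2, which also act on the ring after lanosterol.

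Among the regulators, both SREBP genes fell and both INSIG genes rose in Hb+NTR1 against Hb. Srebf2 (chr15:82147181-82205379) had 516, 485 and 500.0 CPM in control, 539, 445 and 473 in Hb and 277, 296 and 290.3 in Hb+NTR1. The Hb+NTR1 libraries were all lower than the other 6, and Hb varied most (log2 fold change -0.75 ± 0.0684, 1.69-fold lower, adjusted p = 1.33e-09). Srebf1, whose products drive fatty acid genes as well, had 85.9, 72.7 and 78.7 CPM in control, 91.9, 77.98 and 74.2 in Hb and 58.5, 64.9 and 65.2 in Hb+NTR1. Its fall was smaller (log2 fold change -0.37 ± 0.0844, 1.29-fold lower, adjusted p = 0.000527). Per kilobase, Srebf2 was at 69.7 ± 2.14 and Srebf1 at 14.04 ± 1.17 CPM in control.

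Insig1 (chr5:28071363-28078662), itself a classic SREBP target, had 207, 200.3 and 207 CPM in control, 196, 187 and 193 in Hb and 249, 245 and 253 in Hb+NTR1. Its Hb+NTR1 libraries lay above all others (log2 fold change 0.37 ± 0.0579, 1.296-fold higher, adjusted p = 5.53e-06). Insig2 (chr1:121304353-121332589) had 24.8, 29.1 and 29.4 CPM in control, 31.7, 31.6 and 28.8 in Hb and 41.5, 45.1 and 44.4 in Hb+NTR1, again with Hb+NTR1 highest and no overlap (log2 fold change 0.51 ± 0.0892, 1.42-fold higher, adjusted p = 2.96e-05). Per kilobase, Insig1 went from 66.3 ± 1.32 CPM in control to 80.5 ± 1.17 in Hb+NTR1, and Insig2 from 7.99 ± 0.733 to 12.6 ± 0.552, so Insig1 stayed the more abundant of the pair. Scap, the escort of the SREBPs and the most abundant regulator not past the threshold here, had 58.2, 56.98 and 58.5 CPM in control, 69.4, 57.3 and 58.8 in Hb and 63.3, 72.1 and 64.2 in Hb+NTR1, and Hb and Hb+NTR1 overlapped (log2 fold change 0.10 ± 0.0807, 1.07-fold higher, adjusted p = 0.271). Without Hb replicate 1 Scap was called higher (log2 fold change 0.19, adjusted p = 0.0430), and 18.6% of its principal transcript has an annotated antisense overlap.

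**Figure D4:**
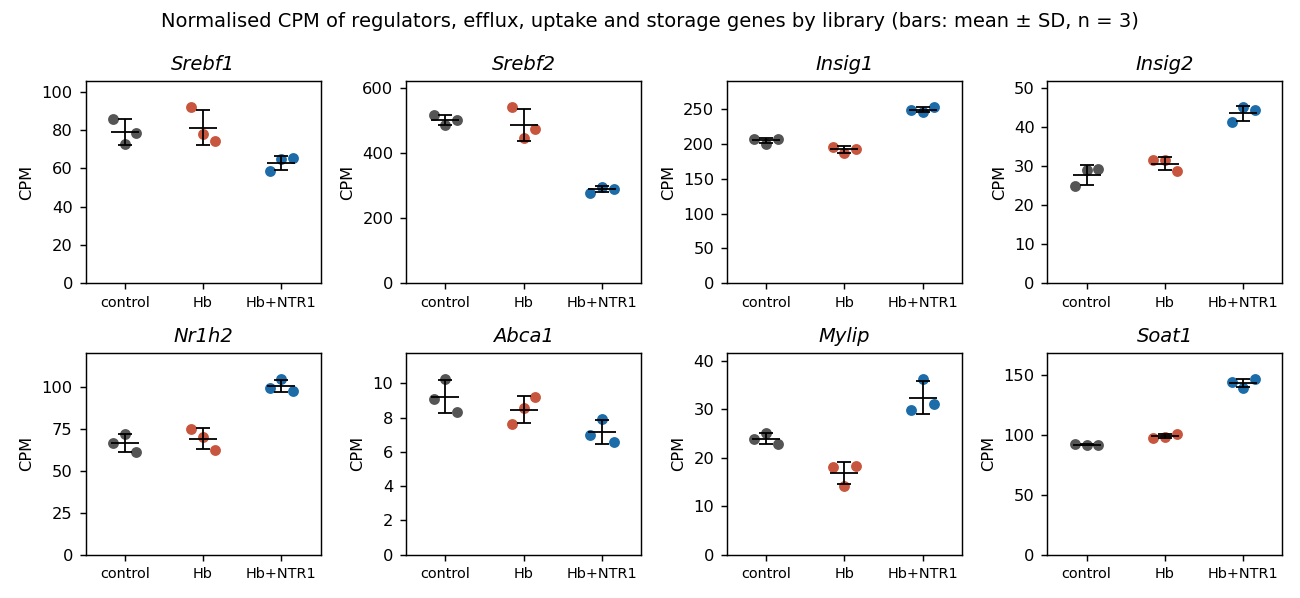
Normalised CPM of Srebf1, Srebf2, Insig1, Insig2, Nr1h2, Abca1, Mylip and Soat1 in each library (dots), by group. Bars show mean ± SD (n = 3). Srebf2 falls from 486 ± 48.6 to 288 ± 9.83 CPM between Hb and Hb+NTR1, while Insig2, Nr1h2, Mylip and Soat1 lie highest in Hb+NTR1.

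In the LXR and efflux group, Nr1h2, which encodes LXR-beta, the form found in most tissues, had 66.5, 71.7 and 60.9 CPM in control, 74.7, 69.9 and 62.5 in Hb and 98.97, 105 and 97.5 in Hb+NTR1. All Hb+NTR1 libraries were above the others (log2 fold change 0.54 ± 0.0773, 1.45-fold higher, adjusted p = 1.89e-06). A processed pseudogene, Nr1h2-ps, is annotated, and reads could be split between the copies. Nr1h3, which encodes LXR-alpha, had 0 to 7 counts a library, or 0.181, 0.0665 and 0.0716 CPM in control, 0.0706, 0 and 0 in Hb and 0.480, 0.0702 and 0 in Hb+NTR1, and was not tested. Abca1, the pump that loads cholesterol onto apolipoproteins, was low, with 9.09, 10.2 and 8.31 CPM in control, 7.63, 8.54 and 9.20 in Hb and 6.99, 7.94 and 6.54 in Hb+NTR1, and Hb and Hb+NTR1 overlapped (log2 fold change -0.24 ± 0.150, 1.18-fold lower, adjusted p = 0.171). Its partner Abcg1 had 0 counts in all 9 libraries, which allows up to 3 counts in each, or 0.181 to 0.223 CPM, counting error only. With 1 of the 2 pumps at 0 and the other under 1 CPM per kilobase, the efflux side of the set rests on few reads.

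Of the uptake, storage and transport genes, Soat1, the enzyme that esterifies cholesterol for storage, had 92.2, 91.7 and 91.6 CPM in control, 97.4, 98.3 and 101 in Hb and 144, 139 and 147 in Hb+NTR1. The libraries within each group were close together, and Hb+NTR1 lay above both others (log2 fold change 0.54 ± 0.0611, 1.45-fold higher, adjusted p = 5.71e-08). Mylip rose as given above, from the low level in Hb to above control. Stard4, which ferries cholesterol between membranes, had 164, 155 and 163 CPM in control, 131, 133 and 155 in Hb and 150.1, 135 and 153 in Hb+NTR1, with overlap of Hb and Hb+NTR1 (log2 fold change 0.06 ± 0.0714, 1.05-fold higher, adjusted p = 0.449).

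Hb+NTR1 was also compared with control, a contrast that holds both treatments at once. Of 28 members 7 rose and 14 fell (75.0%), where 63.6% of all genes were called, 31.4% higher and 32.2% lower. These calls share the Hb+NTR1 libraries with those above. The synthesis genes had 1 higher (Msmo1, log2 fold change 0.48 ± 0.0650, 1.39-fold higher, adjusted p = 7.7e-07) and 11 lower, with a median log2 fold change of -0.36, against -0.0042 for all tested genes. Pmvk was 2.92-fold lower (-1.55 ± 0.0997, adjusted p = 2.64e-12), Nsdhl 2.12-fold (-1.08 ± 0.0668, adjusted p = 1.18e-12) and Mvd 2.03-fold (-1.02 ± 0.0905, adjusted p = 7.73e-10). Idi1 fell 1.21-fold (adjusted p = 0.0129), a call that ended on leaving out control replicate 3 (adjusted p = 0.0656) or Hb+NTR1 replicate 3 (0.0520) and with library totals alone (0.0523). Sc5d (0.08 ± 0.0670) and Dhcr7 (0.15 ± 0.0813), which rose against Hb, did not pass against control, though Dhcr7 passed without Hb+NTR1 replicate 1 (adjusted p = 0.0425) and with library totals alone (0.0226). The difference between these 2 comparisons is that of Hb against control.

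Outside the synthesis route, Insig2 rose 1.58-fold against control (0.66 ± 0.0895, adjusted p = 8.6e-07), Soat1 1.56-fold (0.64 ± 0.0611, adjusted p = 2.75e-09) and Nr1h2 1.51-fold (0.59 ± 0.0772, adjusted p = 4.02e-07). Insig1 rose 1.21-fold, and Srebf2 and Srebf1 fell 1.74-fold and 1.26-fold. Scap rose and Abca1 fell with the same adjusted p of 0.0345, and both calls were fragile. That of Scap (0.20 ± 0.0807) ended on leaving out control replicate 1, 2 or 3 (adjusted p = 0.0744, 0.0961 and 0.0644) or Hb+NTR1 replicate 2 (0.185) and with no filter on low counts (0.0788). That of Abca1 (-0.37 ± 0.148) ended without control replicate 1 or 2 (0.0579 and 0.147) and Hb+NTR1 replicate 1 or 3 (0.0904 and 0.129), with no filter (0.0501), with library totals alone (0.0797) and by DESeq2 (0.0614). Stard4 (-0.14 ± 0.0709, adjusted p = 0.0945) passed as lower without Hb replicate 2 (0.0364) and with only the 6 libraries compared (0.0118).

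Across the 3 comparisons, 13 members were not called in Hb against control and lower in both comparisons of Hb+NTR1, which were 11 synthesis genes, Srebf1 and Srebf2. In 5 the pattern was the same but higher, namely Msmo1, Insig1, Insig2, Nr1h2 and Soat1. Sqle, Tm7sf2, Hsd17b7, Ebp and Stard4 were called in 0 of the 3. In the comparison table deposited by the authors for Hb+NTR1 against control, 0 of the 30 members were among its 691 genes, the smallest absolute log2 fold change of which is 2.005.

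Beyond the members, 38 other genes of the pathway were listed, and 34 of them were tested. In Hb against control 1 rose and 0 fell, where 3.65% of all genes were called. In Hb+NTR1 against Hb 18 rose, 11 fell and 5 did not pass, or 85.3% called, where 62.3% of all genes were called, 30.7% higher and 31.6% lower. The median log2 fold change was 0.23 where all tested genes had -0.01. Against control the counts were the same, beside 63.6% of all genes called. The lists that follow are small, and their counts are to be read against these shares. The 10 genes of uptake and the lysosome had 6 higher and 4 lower against Hb, with a median of 0.80. The 4 other synthesis genes had 3 higher and 1 lower, the 8 of regulation 4 higher and 1 lower, the 4 tested of efflux and oxysterols 2 higher and 2 lower, and the 8 of storage and transport 3 higher and 3 lower.

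The rises by the naming rule included lysosomal genes of cholesterol release. Npc1, the membrane protein that exports cholesterol from the lysosome, had 41.2, 43.2 and 42.9 CPM in control, 46.2, 36.6 and 44.5 in Hb and 107, 110.1 and 109 in Hb+NTR1, with Hb+NTR1 above all others (log2 fold change 1.36 ± 0.0800, 2.56-fold higher, adjusted p = 5.93e-13). Npc2, its soluble partner, rose 1.92-fold (0.94 ± 0.0745, adjusted p = 1.28e-10), and Lipa, the lysosomal acid lipase that frees cholesterol from its esters, 1.68-fold (0.75 ± 0.0691, adjusted p = 1.65e-09). Nceh1, a hydrolase of cholesteryl esters outside the lysosome, had 50.04 ± 2.20 CPM in control, 53.7 ± 1.41 in Hb, and with NTR1 added 113 ± 4.63 and rose 2.099-fold (adjusted p = 3.62e-12). Lrp8, a receptor for apolipoprotein E and reelin, had 176, 182 and 169 CPM in control, 218, 198 and 212 in Hb and 376, 355 and 394 in Hb+NTR1. It rose in both steps (log2 fold change 0.25 ± 0.0638, 1.19-fold higher, adjusted p = 0.0231 in Hb against control, and log2 fold change 0.84 ± 0.0633, 1.79-fold higher, adjusted p = 5.04e-11 in Hb+NTR1 against Hb). The former call was lost in 5 of the 6 fits that left out a control or Hb library (adjusted p up to 0.174).

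The falls by the same rule were led by Soat2, the acyltransferase related to Soat1 that is typical of liver and intestine, with 8.49, 8.44 and 7.88 CPM in control, 7.56, 6.56 and 7.35 in Hb and 2.40, 2.32 and 1.253 in Hb+NTR1. Hb+NTR1 lay below the others (log2 fold change -1.84 ± 0.209, 3.58-fold lower, adjusted p = 5.69e-08), and in the authors' deposited table its log2 fold change against control is -2.06. Lrp1, an endocytic receptor for lipoproteins, had 661, 616 and 632 CPM in control, 726, 412 and 600.5 in Hb and 212, 219.6 and 198 in Hb+NTR1, with a wide spread in Hb (log2 fold change -1.47 ± 0.165, 2.76-fold lower, adjusted p = 2.14e-05). Tmem97, a sterol-regulated membrane protein that binds NPC1, fell 1.92-fold (-0.94 ± 0.0669, adjusted p = 1.73e-11). Abca7, a lipid transporter related to Abca1, fell 1.84-fold (-0.88 ± 0.0832, adjusted p = 2.87e-09), Vldlr, a lipoprotein receptor, 1.55-fold (-0.63 ± 0.0868, adjusted p = 1.06e-06), and Apoe, the apolipoprotein that carries cholesterol in brain, 1.64-fold (-0.71 ± 0.130, adjusted p = 4.73e-05).

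**Figure D5:**
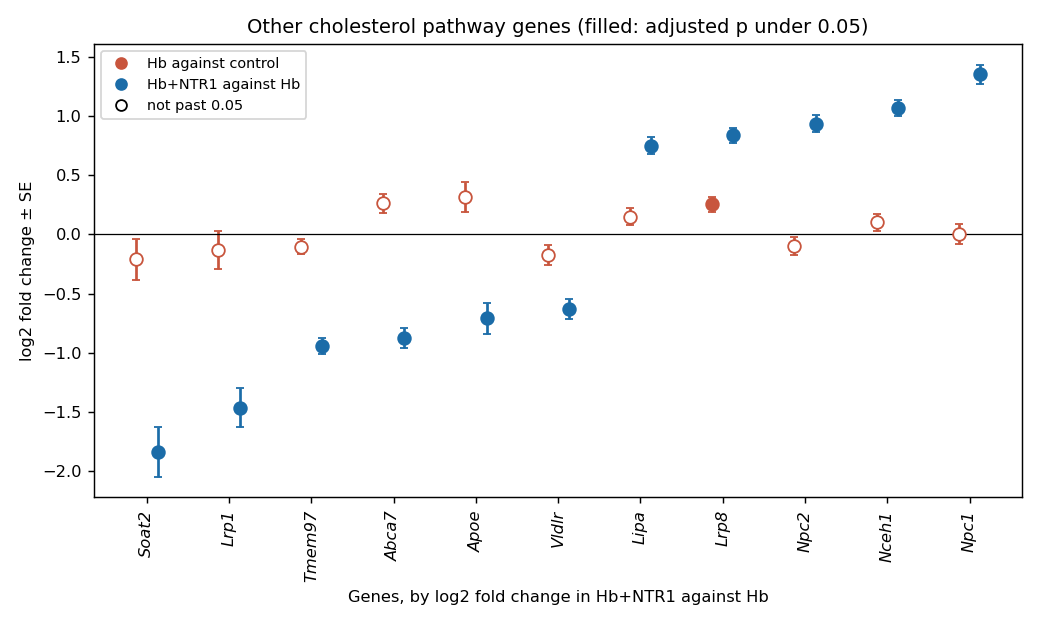
Log2 fold change ± SE of 11 other pathway genes picked by the rule, in Hb against control and in Hb+NTR1 against Hb. Filled points passed an adjusted p of 0.05, which in Hb against control is Lrp8 alone, and the order runs from Soat2 at -1.84 to Npc1 at 1.36.

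Markers of other cell types moved with the Hb+NTR1 group, and some with Hb as well. Of 8 neuronal markers 7 were under 1 CPM in control, with Map2 and Snap25 at 0 counts in all libraries, so the neuronal label was not borne out by these markers. Their summed level was 31.9 to 34.4 CPM in control, 32.6 to 41.5 in Hb and 5.29 to 6.25 in Hb+NTR1. In control most of that sum was Tubb3, the 1 neuronal marker tested. Tubb3 fell in Hb+NTR1 against Hb (log2 fold change -2.81 ± 0.122, 6.99-fold lower, adjusted p = 2.44e-15). The summed level of 7 fibroblast markers was 12462 to 13205 CPM in control, 9498 to 10862 in Hb and 1228 to 1324 in Hb+NTR1, and 6 of 6 tested fell in Hb+NTR1 against Hb, where 31.6% of all genes were lower. In Hb against control 4 of these 6 fell (Col1a1, Col1a2, Pdgfra and Postn), where 1.77% of all genes were lower. The summed level of 5 astrocyte markers went from 199 to 229 CPM in control over 115 to 138 in Hb to 8.08 to 9.27 in Hb+NTR1. Of these 5, 4 were under 1 CPM in control, with Aqp4 at 0 counts in all libraries, and the sum was almost all Slc1a3, a glutamate transporter, at 211 ± 14.5 CPM in control. Slc1a3 fell in Hb against control (log2 fold change -0.78 ± 0.0732, 1.72-fold lower, adjusted p = 2.23e-07), while Aldh1l1, the other tested astrocyte marker, had a log2 fold change of 0.20 ± 0.557 (adjusted p = 0.908). The 5 oligodendrocyte markers, with Olig2 at 0 counts, summed to 4.08 to 4.65, 2.33 to 2.87 and 1.78 to 1.95 CPM, and the 4 microglia and macrophage markers stayed under 1 CPM in sum. The part of these shifts in the changes of the cholesterol genes was not tested.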

How the data were processed

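Poly(A) RNA libraries of 9 samples in 3 groups were prepared with a NEBNext kit and sequenced on an Illumina NovaSeq, per the labels' protocols. The tools listed by the submitters' processing notes are HISAT2 2.1.0, HTSeq 0.10.0 and bcl2fastq 2.19.1.403, with the build GRCm38. Which annotation release and strand setting were used, and how shared reads were handled, is not given in the sources used. The deposited table holds raw counts per gene symbol, of which 98 of 54232 rows, repeats with identical values, were removed. The authors' second deposited table gives log2 fold changes and p-values for Hb+NTR1 against control, by a test not given here. Count columns beginning with N were taken as Hb+NTR1, because that table holds only N and C columns.

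The analysis used edgeR 4.0.16 in R 4.3.3: filterByExpr with a minimum count of 10 (13810 genes kept), TMM factors, and a robust quasi-likelihood fit of all 9 libraries with a term for group (common biological coefficient of variation 6.90%), checked on simulated data. SE is the size of the log2 estimate over the root of F. Levels per kilobase used GENCODE M21 on GRCm38. The members, lists and tests were chosen with earlier results of these data known, so no list was tested as a set. Values per library are given for members with up to 6 largest called changes in each direction per comparison, those called in opposite directions, the most abundant uncalled member of each role, and the paralog pairs. Of the other pathway genes, up to 5 called in each direction that reached 5 CPM in either group were named, and 1 gene so picked is not reported here. Alternatives were DESeq2 size factors, library totals, DESeq2 1.42.0, no filter, a filter of 1 CPM in at least 3 libraries, a fit of the 6 libraries compared alone, a block for replicate number, and leaving out each library.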

Additional observations from a re-analysis of the deposited data

How the results depend on the processing

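Every member called in Hb+NTR1 against Hb, except Dhcr7, kept its call under all alternatives run, and the exceptions against control were Idi1, Scap and Abca1. In Hb against control, the genes called ranged from 285 to 1125 on leaving out 1 library, members called lower from 0 to 4, synthesis genes called lower from 0 to 3, and uptake, storage and transport genes called lower from 0 to 2. The median log2 fold change of the regulators ranged there from -0.0563 to 0.102, and that of the uptake, storage and transport genes from -0.28 to -0.16. DESeq2 and the replicate block each gave 2 members and 1 synthesis gene (Sc5d) called lower. In Hb+NTR1 against Hb, leaving out 1 library gave synthesis medians from -0.35 to -0.25 and regulator medians from 0.0454 to 0.191, and library totals alone gave 5 synthesis genes called higher. In Hb+NTR1 against control, library totals alone gave 2 synthesis genes called higher, a synthesis median of -0.30 and an uptake, storage and transport median of 0.50. Leaving out 1 library gave 1 to 2 synthesis genes called higher, 0 to 1 LXR and efflux genes called lower, 0 to 1 uptake, storage and transport genes called lower, and a median of that group from 0.35 to 0.49. The LXR and efflux count called lower, which is Abca1, was 0 with library totals alone, with no filter and by DESeq2. With only the 6 libraries compared, 1 uptake, storage and transport gene, Stard4, was called lower. The cause of these shifts was not tested.

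Signs changed for genes near 0 that were not called. In Hb against control, library totals alone gave log2 fold changes of 0.00307 for Mvk, 0.00126 for Fdft1 and 0.0143 for Lss. Leaving out 1 library there gave ranges from -0.0936 to 0.0168 for Fdft1, -0.0281 to 0.0897 for Idi1, -0.0260 to 0.0934 for Msmo1, -0.0563 to 0.103 for Srebf1, -0.126 to 0.0146 for Srebf2 and -0.00433 to 0.123 for Nr1h2. In Hb+NTR1 against Hb the ranges were -0.0107 to 0.0574 for Sqle and -0.140 to 0.0632 for Tm7sf2, which had 0.0130 with library totals alone. In Hb+NTR1 against control, Hsd17b7 had 0.0375 with library totals alone and -0.0596 to 0.0242 on leaving out 1 library.

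The replicate numbers did not pair the libraries: same-numbered libraries of different groups had correlations of deviations from -0.0488 to 0.0953. With the replicate block, 645 genes were called in Hb against control, 8706 in Hb+NTR1 against Hb, with 9 members higher (Ebp added), and 8898 in Hb+NTR1 against control. At this depth Abcg1 had no counts and Nr1h3 too few to be tested, and Abca1 was tested at a low level.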
